A study of Mus musculus with 16 samples.

Results

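The genes described here are 9 lipid genes that mark lipofibroblasts or handle fatty acids: Pparg, Cebpa, Fabp4, Cd36, Lpl, Plin2, Pnpla2, Lipe and Acsl1. They were taken by symbol, through the transcript that each array probe carries, and all 9 were measured, out of 15394 named genes in the series. Lipofibroblasts are fibroblasts of the alveolar wall that store neutral lipid in droplets and lie beside the surfactant-producing epithelium. In them, as in fat cells, the nuclear receptor PPARG pairs with RXR on DNA and turns on genes for fatty acid capture, transport and storage, and C/EBPα works alongside it. TGF-β1 moves fibroblasts towards contractile, matrix-producing myofibroblasts, a state in which the lipid programme is known to recede.

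RNA was measured on 16 one-colour arrays of primary lung fibroblasts, taken by enzymatic digestion of lungs from female-labelled mice of 8 weeks. The 4 groups of 4 independent experiments each were Meflin knockout with recombinant TGF-β1 (5 ng/ml, 48 h), Meflin knockout with vehicle, wild type C57BL/6J with the same TGF-β1 treatment, and wild type with vehicle. Meflin, encoded by Islr, is a membrane-anchored protein of mesenchymal cells, and the cells labelled knockout came from animals that lack it. The labels do not give the strain background of the knockout.

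On the knockout arrays Islr was at background, and on all wild type arrays it was well above it. Its mean log2 signal was 8.34 with TGF-β1 and 10.82 with vehicle in wild type cells, so Islr was at least 19.6-fold lower in knockout than in wild type cells with TGF-β1 and at least 137-fold lower with vehicle. Signal was lowest on the TGF-β1 arrays: scaling intensities (each array's 75th percentile over probes) spanned 382 to 446 on knockout TGF-β1, 470 to 519 on knockout vehicle, 429 to 452 on wild type TGF-β1 and 486 to 526 on wild type vehicle arrays, and 31322 to 35472 probes per array lay well above background. The number of arrays limits the precision of the values below, and so does signal near background for the dim genes named as such. TGF-β1 changed much of the transcriptome, and the text gives for each comparison the share of all genes called, with an adjusted p under 0.05 in limma counted as a call.

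The cultures carried the markers of fibroblasts: all 9 fibroblast markers, Col1a1 and Pdgfra among them, were well above background on every array. The 7 fat cell markers were split: Adipoq and Plin1 were not well above background on any array and Cfd was on only 1, whereas Lep and Adrb3 were on all 16, Cidec on 2 of 4 knockout TGF-β1, 3 of 4 knockout vehicle and all wild type arrays, and Retn on 2 of 4 arrays of each TGF-β1 group and all vehicle arrays. Macrophage RNA was present throughout. All 15 macrophage markers were well above background on all 16 arrays, and their summed linear signal was 72191 to 80076 on knockout TGF-β1, 144430 to 150910 on knockout vehicle, 101840 to 109070 on wild type TGF-β1 and 179800 to 209040 on wild type vehicle arrays. With TGF-β1, 13 macrophage markers fell and 2 rose in knockout cells (median log2 difference −1.28), and 14 fell and 1 rose in wild type cells (median −0.92). Over all genes, 35.9% fell and 46.6% rose in knockout cells, and 27.3% fell and 41.3% rose in wild type cells. All marker counts with TGF-β1 given here are to be read beside these shares. Marco rose in both genotypes, from a mean log2 signal of 11.4 to 13.3 in knockout and from 12.3 to 13.1 in wild type cells. Siglecf rose in knockout cells (9.47 to 9.66) and fell in wild type cells (10.45 to 9.67). Itgax and Chil3 were among the markers that fell in both. Of the 11 endothelial markers 10 fell in each genotype. Their summed signals were 4349 to 4815, 10239 to 10480, 6059 to 6582 and 10926 to 11304 on knockout TGF-β1, knockout vehicle, wild type TGF-β1 and wild type vehicle arrays. Of 7 measured lung epithelium markers, 4 rose and 3 fell in knockout cells, and 4 rose and 2 fell in wild type cells. Sftpc averaged 8.14 on knockout vehicle and 8.57 on wild type vehicle arrays, and 1.87 and 3.77 with TGF-β1, near background. Krt8, Krt18 and Cdh1 were among those that rose. Pparg, Cd36, Fabp4, Lpl and Plin2 are also expressed by alveolar macrophages, and Cd36 and Fabp4 by capillary endothelium. In RNA from a mixed culture, fewer cells of a type and less RNA per cell cannot be told apart, and the part these cells have in the results below was not tested. All 5 myofibroblast markers rose with TGF-β1 in both genotypes, with medians of 3.38 in knockout and 2.19 in wild type cells.

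The promoters of the 9 genes, which did not all move together, give the sequence context. RefSeq windows of 300 bases on build GRCm38.p6, 250 before and 50 after an annotated start, matched 7 of the 9 genes by symbol, all but Fabp4 and Lpl, and gave 11 windows. Each was searched on both strands for the PPAR and RXR direct repeat (2 copies of AGGTCA in the same direction with 1 base between), the half-site AGGTCA alone (which the repeat contains), the C/EBP palindrome core TTGCGCAA, the SMAD palindrome GTCTAGAC and the TATA element TATAAA. The Pparg, Cd36 and Plin2 windows are printed because they hold the half-site, and the Cebpa window because it holds the TATA element. Capitals mark the matches, and each line reads 5′ to 3′ on the gene's own strand. The Pparg window lies at chr6:115362099-115362398 on the plus strand, the Cebpa window at chr7:35119043-35119342 on the plus strand, the Cd36 window at chr5:17835847-17836146 on the minus strand and the Plin2 window at chr4:86670010-86670309 on the minus strand.
Pparg: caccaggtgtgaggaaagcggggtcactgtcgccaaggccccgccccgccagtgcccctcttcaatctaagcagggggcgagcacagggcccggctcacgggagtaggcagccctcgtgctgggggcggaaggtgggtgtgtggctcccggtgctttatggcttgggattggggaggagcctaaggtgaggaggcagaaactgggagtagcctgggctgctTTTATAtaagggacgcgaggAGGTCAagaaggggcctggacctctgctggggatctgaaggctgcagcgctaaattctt
Cebpa: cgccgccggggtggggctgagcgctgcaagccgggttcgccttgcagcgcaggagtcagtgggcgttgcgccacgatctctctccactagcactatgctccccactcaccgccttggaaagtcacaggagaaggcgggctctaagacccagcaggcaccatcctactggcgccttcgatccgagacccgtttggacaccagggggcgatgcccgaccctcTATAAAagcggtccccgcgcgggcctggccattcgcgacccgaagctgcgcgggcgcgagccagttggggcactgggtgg
Cd36: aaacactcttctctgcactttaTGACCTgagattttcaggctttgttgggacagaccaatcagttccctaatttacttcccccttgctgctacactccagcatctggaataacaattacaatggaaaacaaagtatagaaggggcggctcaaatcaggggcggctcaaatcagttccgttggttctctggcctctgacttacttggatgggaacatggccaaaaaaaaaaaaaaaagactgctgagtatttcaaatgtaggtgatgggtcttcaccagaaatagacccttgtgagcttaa
Plin2: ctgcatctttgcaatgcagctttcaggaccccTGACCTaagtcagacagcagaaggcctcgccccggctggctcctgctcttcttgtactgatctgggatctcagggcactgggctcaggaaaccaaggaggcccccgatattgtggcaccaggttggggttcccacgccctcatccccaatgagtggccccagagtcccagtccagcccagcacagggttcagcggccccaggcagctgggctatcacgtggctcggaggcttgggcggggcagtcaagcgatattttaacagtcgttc
In this Pparg window AGGTCA begins 9 bases before the start, and TATAAA lies on the opposite strand 29 bases before it. A window at another Pparg start, chr6:115360894-115361193 on the plus strand, holds AGGTCA 28 bases before the start. The half-site lies on the opposite strand 228 bases before the Cd36 start and 218 bases before the Plin2 start, and TATAAA begins 30 bases before the Cebpa start. AGGTCA was found in 4 of the 11 windows and in 16.3% of all 32851 windows of the table, and TATAAA in 2 of the 11 and in 13.6% of all windows. The full direct repeat, the C/EBP core and the SMAD palindrome were in 0 of the 11 windows, against 0.0396%, 0.183% and 0.213% of all windows. A match here is a string of letters and not a bound site, and no match says only that these letters are not in this window.

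Most of the 9 genes were lower with TGF-β1 in both genotypes, and 3 of them (Fabp4, Cd36 and Lpl) were lowered further in knockout cells. In knockout cells all 9 were called, 8 lower and 1 higher (Plin2, which was lower with quantile normalization, at −0.23, and in the authors' value table), with a median log2 difference of −0.91 against 0.10 over all genes, where 82.6% of all genes were called, 35.9% lower and 46.6% higher. In wild type cells 7 were called, all lower, with a median of −0.75 against 0.08 over all genes, where 68.6% of all genes were called, 27.3% lower and 41.3% higher. The 4 TGF-β1 arrays lay wholly below the 4 vehicle arrays for 8 genes and wholly above them for 1 in knockout cells (33.3% and 43.9% of all genes), and for 7 and 0 in wild type cells (25.0% and 38.0% of all genes). In both genotypes 6 genes were lower (23.5% of all genes) and 0 were higher (35.0% of all genes). The 3 genes lower in both and lowered further in knockout cells compare with 13.6% of all genes. The response to TGF-β1 differed between genotypes for 5 of the 9 genes (58.3% of all genes), lower in knockout for Fabp4, Cd36, Lpl and Acsl1 (26.5% of all genes) and higher for Plin2 (31.9% of all genes). The comparison of the 2 responses is built from all 4 groups.

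**Figure D1:**
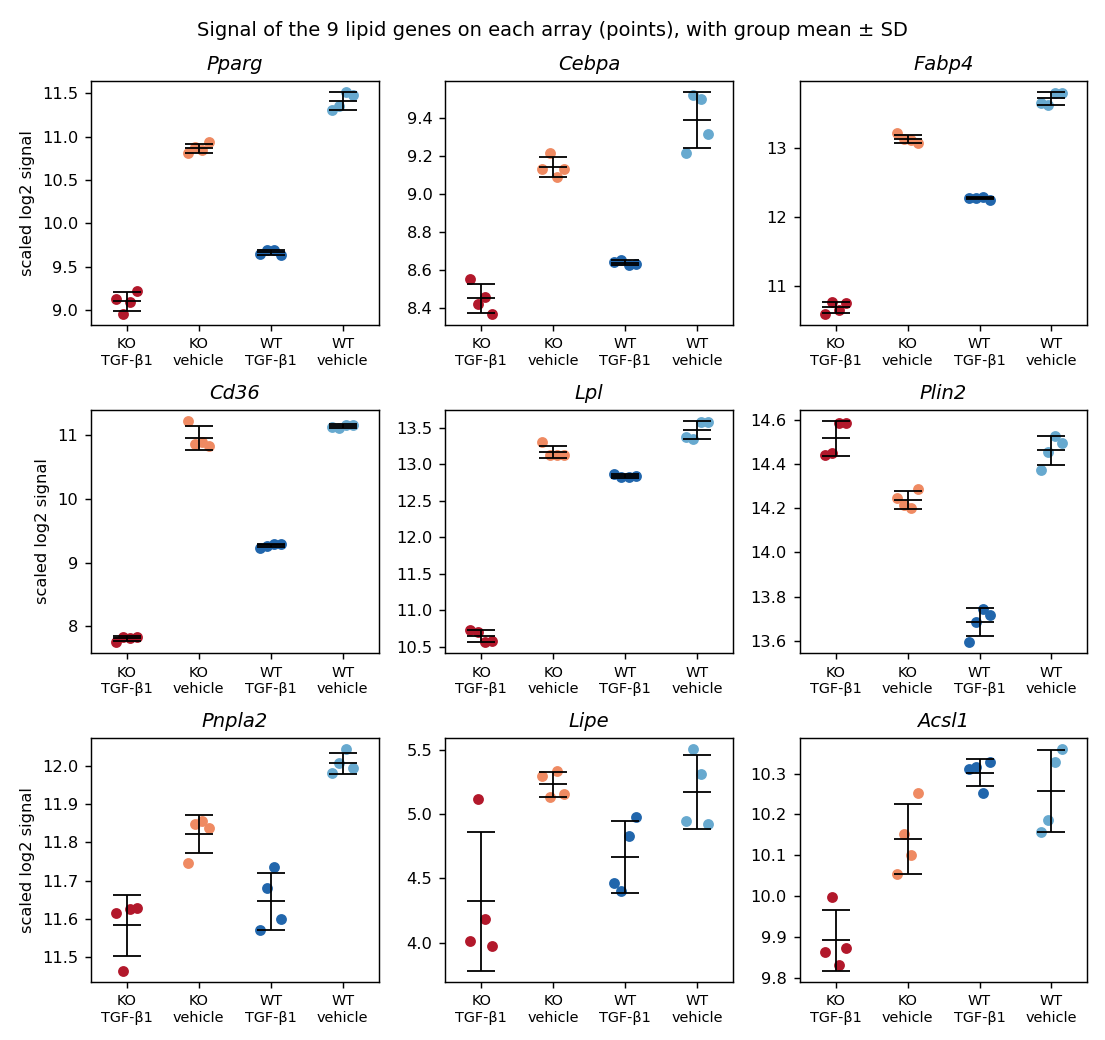
Scaled log2 signal of each of the 9 genes on each of the 16 arrays, with a panel per gene, groups along the horizontal axis and its own vertical axis in each panel. Points are arrays and black bars the group mean ± SD (n = 4). Pparg, Cebpa, Fabp4, Cd36, Lpl and Acsl1 lie lowest on the 4 knockout TGF-β1 arrays, and Plin2 lies lowest on the 4 wild type TGF-β1 arrays.

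Pparg encodes the nuclear receptor at the head of the lipid programme. Its log2 signal was 9.13, 8.96, 9.09 and 9.23 on the knockout TGF-β1 arrays, against 10.81, 10.88, 10.84 and 10.94 on the knockout vehicle arrays. In wild type cells it was 9.65, 9.69, 9.70 and 9.63 with TGF-β1, against 11.30, 11.35, 11.51 and 11.48 with vehicle. The 4 groups did not overlap, in the order knockout TGF-β1, wild type TGF-β1, knockout vehicle and wild type vehicle from low to high. TGF-β1 lowered Pparg 3.40-fold in knockout cells (log2 difference −1.76 ± 0.06 SE, limma adjusted p = 3.11e-13) and 3.35-fold in wild type cells (−1.74 ± 0.06, limma adjusted p = 1.64e-12). The difference between the 2 responses was −0.021, with a 95% confidence interval of −0.19 to 0.15, and did not pass the test. Knockout cells were lower than wild type cells by similar amounts in both conditions, with log2 differences of −0.57 with TGF-β1 and −0.54 with vehicle (limma adjusted p = 4.32e-07 and 2.05e-05). Within slide 1 and slide 2, each of which held 2 arrays of every group, the TGF-β1 difference was −1.80 and −1.73 in knockout cells and −1.66 and −1.83 in wild type cells.

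Cebpa, the transcription factor C/EBPα that cooperates with PPARG, followed the same order at a smaller scale. The knockout TGF-β1 arrays gave 8.56, 8.42, 8.46 and 8.37, against 9.14, 9.22, 9.09 and 9.14 on the knockout vehicle arrays. Wild type cells gave 8.64, 8.66, 8.63 and 8.63 with TGF-β1, against 9.22, 9.52, 9.50 and 9.32 with vehicle. Each TGF-β1 group lay wholly below its vehicle group, while the knockout and wild type vehicle arrays were separated by less than 0.01 between their nearest arrays. The log2 difference with TGF-β1 was −0.69 ± 0.06 SE in knockout and −0.75 ± 0.06 in wild type cells (limma adjusted p = 4.60e-08 and 4.53e-08), and the responses did not differ beyond the test (0.06, 95% confidence interval −0.13 to 0.24). Knockout cells were lower by 0.19 on the log2 scale with TGF-β1 and by 0.25 with vehicle (limma adjusted p = 0.0129 and 0.0158). The vehicle difference was not called without wild type vehicle replicate 3 (adjusted p = 0.0547), nor within slide 1 (−0.19) or slide 2 (−0.30) alone.

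Fabp4, Cd36 and Lpl bring fatty acids to the cell and carry them inside it, and these were the 3 genes with the deepest falls in knockout cells. Fabp4 encodes a cytosolic fatty acid binding protein and a classic PPARG target. Its signal was 10.59, 10.77, 10.64 and 10.74 on knockout TGF-β1 arrays, against 13.22, 13.14, 13.13 and 13.08 on knockout vehicle arrays. It was 12.28, 12.28, 12.30 and 12.26 on wild type TGF-β1 arrays, against 13.67, 13.63, 13.80 and 13.81 on wild type vehicle arrays. No 2 groups overlapped, and the spread within a group was small beside the steps between groups. TGF-β1 lowered Fabp4 5.49-fold in knockout cells (−2.46 ± 0.05 SE, limma adjusted p = 1.53e-15) and 2.73-fold in wild type cells (−1.45 ± 0.05, limma adjusted p = 2.81e-12). The difference between the responses was −1.01 (95% confidence interval −1.16 to −0.85, limma adjusted p = 1.77e-08), and −1.13 and −0.88 within slides 1 and 2. A dimmer second Fabp4 probe gave −2.35 in knockout and −1.55 in wild type cells.

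Cd36, a scavenger receptor and fatty acid translocase of the cell surface, had the largest fall of the 9 genes in either genotype. It measured 7.75, 7.84, 7.82 and 7.83 on knockout TGF-β1 arrays, against 11.23, 10.87, 10.89 and 10.83 on knockout vehicle arrays. In wild type cells it measured 9.23, 9.26, 9.29 and 9.29 with TGF-β1, against 11.13, 11.11, 11.16 and 11.17 with vehicle. The vehicle groups overlapped because knockout vehicle replicate 1 lay above all wild type vehicle arrays and the other 3 lay below them. TGF-β1 lowered Cd36 8.83-fold in knockout cells (−3.14 ± 0.07 SE, limma adjusted p = 2.45e-15) and 3.66-fold in wild type cells (−1.87 ± 0.07, limma adjusted p = 4.13e-12), and the responses differed by −1.27 (95% confidence interval −1.48 to −1.07, limma adjusted p = 3.27e-08). That difference was −1.38 within slide 1 and −1.16 within slide 2. With vehicle the genotypes differed by −0.19, which was not called (adjusted p = 0.0855), and by −0.28 without knockout vehicle replicate 1, which was called (adjusted p = 0.000142).

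Lpl encodes lipoprotein lipase, which frees fatty acids from circulating triglyceride and is secreted by the cells that make it. The knockout TGF-β1 arrays gave 10.73, 10.70, 10.57 and 10.58, against 13.30, 13.13, 13.12 and 13.12 on the knockout vehicle arrays. The wild type arrays gave 12.87, 12.83, 12.82 and 12.83 with TGF-β1, against 13.38, 13.34, 13.58 and 13.57 with vehicle. Only the knockout TGF-β1 group stood far from the rest, and none of the 4 groups overlapped. The fall with TGF-β1 was 5.75-fold in knockout cells (−2.52 ± 0.06 SE, limma adjusted p = 1.07e-14) and 1.55-fold in wild type cells (−0.63 ± 0.06, limma adjusted p = 3.06e-07). The difference between the responses, −1.89 (95% confidence interval −2.08 to −1.71, limma adjusted p = 1.47e-10), was the largest in size among the 9 genes, and was −1.99 and −1.79 within slides 1 and 2. The 2 dimmer Lpl probes gave differences of −1.80 and −1.61 between the responses. Gpihbp1, the endothelial protein that carries lipoprotein lipase to the capillary lumen and one of the endothelial markers, fell 3.60-fold in knockout and 2.33-fold in wild type cells.

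**Figure D2:**
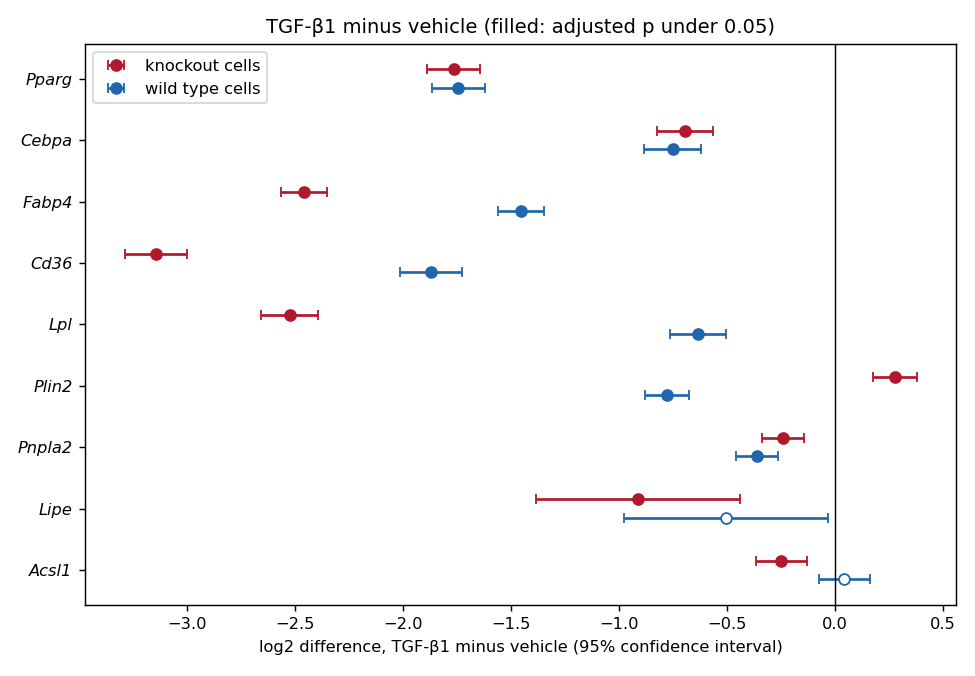
TGF-β1 minus vehicle for each of the 9 genes (rows) as a log2 difference on the horizontal axis, with 95% confidence intervals, in knockout (red) and wild type (blue) cells. Filled points passed an adjusted p of 0.05; the intervals of the 2 genotypes lie apart for Fabp4, Cd36, Lpl, Plin2 and Acsl1, and Plin2 in knockout cells is the only point above 0 that passed, and it turned to −0.23 with quantile normalization.

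Plin2 fell in wild type cells but not in knockout cells with the 75th percentile scaling. It encodes perilipin 2, the coat protein of lipid droplets in most cells other than mature fat cells. Its signal was 14.44, 14.45, 14.59 and 14.58 on knockout TGF-β1 arrays, against 14.24, 14.21, 14.20 and 14.29 on knockout vehicle arrays. In wild type cells it was 13.59, 13.69, 13.74 and 13.72 with TGF-β1, against 14.37, 14.45, 14.52 and 14.50 with vehicle. The wild type TGF-β1 arrays were the lowest of all 16, and the knockout TGF-β1 arrays overlapped the wild type vehicle arrays. In wild type cells Plin2 fell 1.71-fold (−0.78 ± 0.05 SE, limma adjusted p = 1.87e-09). In knockout cells it rose 1.21-fold (0.28 ± 0.05, limma adjusted p = 6.72e-05) with the 75th percentile scaling, but the sign turned to −0.23 with quantile normalization (adjusted p = 2.12e-05) and to −0.23 in the authors' value table, so its direction in knockout cells depends on the scaling. Being called in opposite directions in the 2 genotypes was seen for 3.96% of all genes. The gap between genotypes did not depend on it: the responses differed by 1.05 (95% confidence interval 0.91 to 1.20, limma adjusted p = 6.26e-09), and by 0.77 with quantile normalization and 0.78 in the value table. Quantile normalization and the value table gave nearly the same values, so they are not separate checks. A dimmer second probe gave 0.21 in knockout and −0.86 in wild type cells.

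The median difference of all genes with TGF-β1 in knockout cells was 0.10 with 75th percentile scaling and −0.013 with quantile normalization, a smaller shift than that of Plin2, and what sets the shift of Plin2 was not tested. Relative to the median gene, Plin2 was 0.17 higher in knockout cells and 0.85 lower in wild type cells, while Pnpla2 was 0.34 and Acsl1 0.35 lower in knockout cells. Among called genes, 56.5% were higher with TGF-β1 in knockout cells with 75th percentile scaling, against 48.6% with quantile normalization and 40.4% in the selected probes of the authors' value table, and 60.2%, 52.1% and 40.9% were in wild type cells. For the difference between the responses the shares were 54.6%, 43.6% and 43.1%, between genotypes with TGF-β1 56.6%, 46.8% and 41.5%, and between genotypes with vehicle 53.4%, 53.4% and 38.8%.

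Pnpla2 and Lipe encode the 2 lipases that act in turn on stored triglyceride, ATGL and hormone-sensitive lipase. Pnpla2 measured 11.61, 11.46, 11.63 and 11.63 on knockout TGF-β1 arrays, against 11.75, 11.85, 11.86 and 11.84 on knockout vehicle arrays, and 11.57, 11.68, 11.73 and 11.60 on wild type TGF-β1 arrays, against 11.98, 12.01, 12.04 and 11.99 on wild type vehicle arrays. The TGF-β1 groups lay below their vehicle groups and overlapped each other. The falls were small, 1.18-fold in knockout (−0.24 ± 0.05 SE, limma adjusted p = 0.000208) and 1.28-fold in wild type cells (−0.36 ± 0.05, limma adjusted p = 5.83e-06), and −0.26 and −0.22 in knockout cells within slides 1 and 2. With quantile normalization the knockout difference was −0.47. Their difference was 0.12 with a 95% confidence interval of −0.02 to 0.26 and was not called with all arrays, but was 0.16 and called (adjusted p = 0.0297) without knockout TGF-β1 replicate 2.

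Lipe was dim, and well above background on only 1 of 4 knockout TGF-β1 arrays. Those arrays gave 4.01, 5.12, 4.19 and 3.97, against 5.30, 5.14, 5.33 and 5.16 with vehicle. Wild type cells gave 4.46, 4.40, 4.83 and 4.98 with TGF-β1, against 4.95, 5.51, 5.31 and 4.92 with vehicle. The 1 bright knockout TGF-β1 array, replicate 2, reached nearly the knockout vehicle level, and the wild type groups overlapped. The knockout fall was called (−0.91 ± 0.22 SE, limma adjusted p = 0.00146), but it was −0.03 and not called with normexp background correction, and −0.65 and not called within slide 1. The wild type difference of −0.50 was not called (adjusted p = 0.0557, 95% confidence interval −0.98 to −0.03), and the difference between the responses (−0.41, 95% confidence interval −1.08 to 0.26) is too wide to read a direction from. Without knockout TGF-β1 replicate 2 it was −0.67 and called (adjusted p = 0.0151). The wild type fall was called without wild type TGF-β1 replicate 4 (−0.61), wild type vehicle replicate 1 (−0.58) or wild type vehicle replicate 4 (−0.59).

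Acsl1 encodes an acyl-CoA synthetase that activates fatty acids for storage or oxidation. Its signal was 9.86, 9.998, 9.83 and 9.87 on knockout TGF-β1 arrays, against 10.05, 10.15, 10.10 and 10.25 on knockout vehicle arrays. On wild type arrays it was 10.31, 10.32, 10.25 and 10.33 with TGF-β1, against 10.16, 10.19, 10.33 and 10.36 with vehicle. The knockout groups were apart and the wild type groups overlapped. TGF-β1 lowered Acsl1 1.19-fold in knockout cells (−0.25 ± 0.06 SE, limma adjusted p = 0.000715), within slide 1 by −0.17 (not called) and within slide 2 by −0.32. The wild type difference was 0.04 and not called (adjusted p = 0.489). The difference between the responses was −0.29 (95% confidence interval −0.46 to −0.13, limma adjusted p = 0.00489). A dimmer second probe gave −0.03 in knockout and 0.17 in wild type cells, so the knockout fall itself was not seen by both probes.

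With vehicle the genotypes differed by at most 1.5-fold for the 9 genes. There 6 of the 9 genes were lower in knockout cells and none was higher (13.2% of all genes were called, 6.16% lower and 7.06% higher), with a median log2 difference of −0.22 against 0.03 over all genes. The same 6 had all knockout vehicle arrays below all wild type vehicle arrays (8.18% of all genes), and 0 had them above (10.6%). Pparg (−0.54, 1.46-fold) and Fabp4 (−0.58 ± 0.05 SE, limma adjusted p = 3.40e-06) differed most. Fabp4 differed more by its dimmer probe (−0.76), by the mean of its probes (−0.67) and with quantile normalization (−0.63). Lpl was 1.23-fold and Plin2 1.17-fold lower in knockout vehicle cells (limma adjusted p = 0.0045 and 0.00604), and Pnpla2 was 1.14-fold lower (limma adjusted p = 0.0156). Cd36, Lipe and Acsl1 did not pass, with differences of −0.19, 0.06 and −0.12. Cd36 was called with normexp background correction (−0.23, adjusted p = 0.025), and Acsl1 with the mean of its probes (−0.16, adjusted p = 0.0438). Within slide 1 only Pparg (−0.48) and Fabp4 (−0.47) were called, and within slide 2 Cd36 (−0.30) was called beside Pparg, Fabp4, Plin2 and Lpl. Of the 15 macrophage markers 10 were lower and none higher in knockout vehicle cells, with a median log2 difference of −0.36.

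With TGF-β1 the genotypes stood further apart. There 6 of the genes were lower and Plin2 was higher in knockout cells (70.2% of all genes were called, 30.5% lower and 39.7% higher), with a median of −0.41 against 0.06 over all genes. Their arrays lay wholly apart for those 6 and for Plin2 (27.5% of all genes below and 37.2% above). Lpl was 4.57-fold lower (−2.19 ± 0.06 SE, limma adjusted p = 2.40e-13), Fabp4 3.01-fold (−1.59 ± 0.05, limma adjusted p = 7.93e-13) and Cd36 2.75-fold lower (−1.46 ± 0.07, limma adjusted p = 5.65e-11) in knockout cells, and within slides 1 and 2 these differences were −2.13 and −2.25 for Lpl, −1.60 and −1.58 for Fabp4, and −1.45 and −1.46 for Cd36. Plin2 was 1.78-fold higher (0.83 ± 0.05, limma adjusted p = 7.59e-10), and stayed higher with quantile normalization (0.53). Acsl1 was 1.33-fold lower (limma adjusted p = 8.82e-06). Lipe (−0.35) and Pnpla2 (−0.06) did not pass, although Lipe was called without knockout TGF-β1 replicate 2 (−0.61, adjusted p = 0.00316) and within slide 2 (−0.83, adjusted p = 0.00405). Pnpla2 was called with quantile normalization (−0.19, adjusted p = 0.000897). Of the 15 macrophage markers 11 were lower in knockout TGF-β1 cells, with a median of −0.60, and of the 11 endothelial markers 9 were lower, with a median of −0.42.

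**Figure D3:**
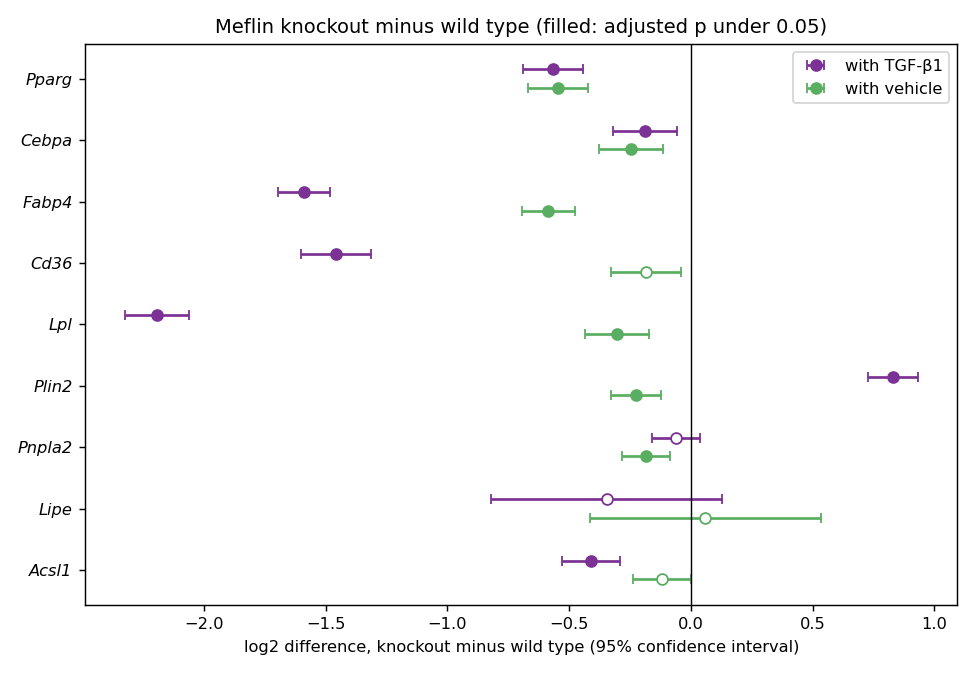
Knockout minus wild type for each of the 9 genes (rows) as a log2 difference on the horizontal axis, with 95% confidence intervals, with TGF-β1 (purple) and with vehicle (green). Filled points passed an adjusted p of 0.05; the 2 intervals lie apart for Fabp4, Cd36, Lpl, Plin2 and Acsl1, while those of Pparg and Cebpa overlap.

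Across the 16 arrays the other genes followed Pparg to different degrees, given here as descriptions over 4 groups of arrays that share treatment and genotype. Pearson's r with Pparg was 0.979 for Cebpa, 0.968 for Cd36, 0.954 for Fabp4, 0.944 for Pnpla2, 0.845 for Lpl, 0.725 for Lipe, 0.521 for Acsl1 and 0.222 for Plin2. The 6 other named genes with the highest r were S100a1 (0.997), H2-T23, Tyrobp, H2-D1, Aldh1a3 and Arl11 (0.996). Tyrobp, a signalling adaptor of myeloid cells, is one of the macrophage markers; its log2 signal averaged 13.41 in knockout TGF-β1, 14.79 in knockout vehicle, 13.88 in wild type TGF-β1 and 15.24 in wild type vehicle cells. By Spearman's rho the 6 nearest genes were Il7r, Lilra6, Plekhm2, Hk3, Tnfaip8l2 and Cxcr1, and 0 of them were among the first 6. The first 6 still had high rho, from 0.932 (H2-T23) to 0.959 (Tyrobp), against 0.991 for Il7r.

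Other genes of the pathway, from lists of regulators, droplet proteins, lipases, synthetic enzymes, transporters and oxidation enzymes, were measured in the same fit. Their counts are to be read beside those over all genes, of which 35.9% fell and 46.6% rose with TGF-β1 in knockout cells and 27.3% fell and 41.3% rose in wild type cells. No test was made of any list. Among 22 partners of PPARG and adipogenic transcription factors, 14 fell and 7 rose with TGF-β1 in knockout cells (median −0.39), and 10 fell and 8 rose in wild type cells (median −0.06). With quantile normalization the counts were 16 and 4 in knockout and 12 and 4 in wild type cells. Rxra, which encodes an RXR, depended on the probe. Its brightest probe gave −0.93 in knockout and −0.45 in wild type cells, and a dimmer probe gave 0.79 and 0.83. Zfp423, a determinant of the preadipocyte state, fell 13.7-fold in knockout and 7.14-fold in wild type cells, and was well above background on 2 of the 4 knockout TGF-β1 arrays. Ppargc1a, a coactivator of PPARs, was not well above background on any TGF-β1 array, and was at least 2.45-fold lower with TGF-β1 in knockout and at least 2.23-fold lower in wild type cells. Nr1h3, the sterol-sensing receptor LXRα, fell 4.20-fold in knockout and 1.89-fold in wild type cells. The responses differed most for Ppara, the receptor that drives fatty acid oxidation (−1.94 in knockout and 0.21 in wild type cells, difference −2.15, limma adjusted p = 5.70e-10), Klf15 (−2.21 and −0.46, difference −1.75) and Cebpd (−1.29 and −0.12, difference −1.17).

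The 16 measured lipofibroblast and alveolar fibroblast markers other than the 9 genes fell more deeply: 13 fell and 3 rose in knockout cells (median −2.27), and 11 fell and 1 rose in wild type cells (median −0.91). Slc7a10 was not well above background. Lepr gave 0.47 in knockout cells by its brightest probe, and dimmer probes gave 0.30 and −0.60. Ces1d, a lung carboxylesterase, was not well above background on any TGF-β1 array and was at least 51.7-fold lower in knockout and at least 60.4-fold lower in wild type cells with TGF-β1. Inmt, an amine methyltransferase of alveolar fibroblasts, had a log2 difference of −5.66 in knockout cells, a value that rests on signal near background because only 1 of the 4 TGF-β1 arrays was well above it, and of −4.26 in wild type cells. Adh1, an alcohol dehydrogenase that makes retinaldehyde, fell 16.4-fold and 10.7-fold in knockout and wild type cells. The widest gaps between the responses among these markers were for the growth factor gene Vegfd (−4.85 in knockout and −0.73 in wild type cells), Limch1 (−3.11 and −0.39) and Pdgfra, the receptor by which these fibroblasts are usually recognised (−2.21 and −0.44, difference −1.77, limma adjusted p = 1.88e-11).

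Of 15 measured lipolysis genes and their regulators, 12 fell and 3 rose in knockout cells (median −1.46), where 35.9% of all genes fell and 46.6% rose. In wild type cells 8 fell and 2 rose (median −0.81), where 27.3% of all genes fell and 41.3% rose. At background in 1 group were 4 of the 15 genes in knockout and 2 in wild type cells, Ces1d among them. A gene kept only through its brighter group can count in only 1 direction, which limits these counts. The medians were −0.66 in knockout and −0.72 in wild type cells with such genes set to the bound of their change. G0s2, an inhibitor of ATGL, fell 8.05-fold in knockout and 2.03-fold in wild type cells, a difference of −1.99 (limma adjusted p = 3.19e-12). Mgll, the monoglyceride lipase that ends the cascade, fell 2.75-fold in knockout and 4.75-fold in wild type cells. Of 13 triglyceride synthesis genes 9 rose and 4 fell in knockout cells (median 0.64), and 8 rose and 2 fell in wild type cells (median 0.41). More genes rose than fell over the whole array too, with 46.6% higher in knockout and 41.3% in wild type cells, and the contrast with the lipolysis genes was not tested. Lpin3, a phosphatidate phosphatase, rose by 2.49 on the log2 scale in knockout and by 0.81 in wild type cells, and Mogat2, a monoacylglycerol acyltransferase, rose 3.18-fold and 4.48-fold. Lpin1, a phosphatidate phosphatase of fat cells, fell 4.01-fold in knockout and 2.45-fold in wild type cells, and 2 dimmer probes of it gave −1.82 and −0.66 in knockout cells. Gpat3, which acylates glycerol phosphate, rose by 1.37 on the log2 scale in knockout and by 0.47 in wild type cells.

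Droplet coat and assembly genes were mixed, with 4 of 10 falling and 3 rising in knockout cells (median −0.12) and 5 falling and 1 rising in wild type cells (median −0.15). Plin1, Plin5, Cidea and Fitm1 were not well above background. Cideb gave 0.21 in knockout cells by its brightest probe and 2.43 by another. Plin4, another perilipin, fell 7.85-fold in knockout and 2.76-fold in wild type cells, opposite in knockout cells to the sign of Plin2 with 75th percentile scaling. Hilpda, a droplet protein that inhibits ATGL, rose 1.46-fold in knockout and fell 1.12-fold in wild type cells (difference 0.71, limma adjusted p = 1.15e-07), and so shared the direction of Plin2 in both genotypes with that scaling. Among 17 uptake and activation genes 8 fell and 6 rose in each genotype (medians −0.04 in knockout and −0.14 in wild type cells). In knockout cells Vldlr gave 0.73 by its brightest probe and −0.44 by another, and Slc27a4 gave −0.20 and 0.31. Acsbg1, an acyl-CoA synthetase best known from brain, rose 35.9-fold in knockout cells, where 3 of the 4 vehicle arrays were well above background, and 1.63-fold in wild type cells. Fabp3, a fatty acid binding protein of muscle, rose 3.09-fold in knockout and 2.14-fold in wild type cells, and the transporter Slc27a3 fell 4.36-fold in knockout and 3.17-fold in wild type cells. Of 20 oxidation genes 10 fell and 7 rose in knockout cells (median −0.13) and 6 fell and 5 rose in wild type cells (median 0.05), beside 35.9% of all genes lower and 46.6% higher in knockout cells and 27.3% lower and 41.3% higher in wild type cells. With quantile normalization these counts became 12 and 3 in knockout and 9 and 3 in wild type cells, and the wild type median −0.08. Pdk4, a PPAR-responsive kinase that turns pyruvate away from oxidation, fell 4.50-fold in knockout and 2.26-fold in wild type cells. Cpt2, which completes fatty acid entry into mitochondria, fell in knockout (−0.86) and rose in wild type cells (0.38), a difference of −1.25 (limma adjusted p = 4.26e-09).

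**Figure D4:**
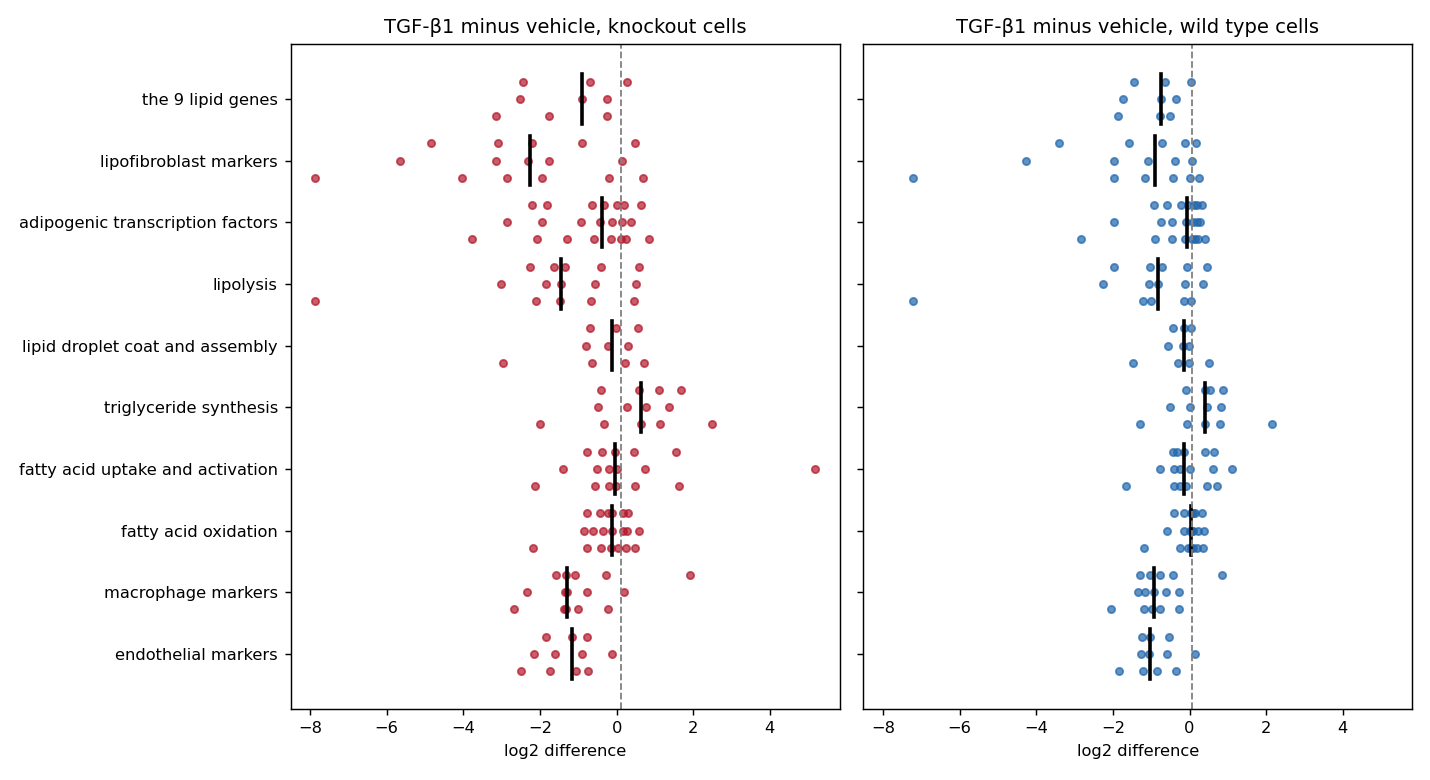
Log2 difference, TGF-β1 minus vehicle (horizontal axis), of each measured gene of the 9 lipid genes, the 7 pathway lists and the macrophage and endothelial markers (rows), in knockout (left) and wild type (right) cells. Points are genes, black bars the list medians and the dashed line the median of all 15394 genes (0.10 in knockout and 0.08 in wild type cells); lipofibroblast markers have the lowest median in knockout cells, and the median of triglyceride synthesis genes lies furthest above the dashed line in both genotypes. Points at the far left are Ces1d, which is on 2 lists and at background with TGF-β1.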

How the data were processed

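Total RNA of 16 cultures was hybridised to 1-colour (Cy3) Agilent arrays. Per the file headers, the deposited scanner files hold spot intensity on a linear scale, background-subtracted by Agilent Feature Extraction 11.0.1.1, which the submitters' processing notes also name. The authors' value table holds log2 values of 9933 selected probes, whose normalization is not given in the sources used here. It is neither centred per gene nor inverted (r of at least 0.999 with the log2 intensity of each array, column medians 6.38 to 6.61), and it served as an alternative. For the genes it holds, its differences were close to those with quantile normalization. In knockout cells Pparg gave −1.833 in the value table and −1.834 with quantile normalization. The 2 are therefore not separate checks.

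Processed intensities of 56605 probes were log2 transformed, repeated spots averaged, and each array shifted to a common 75th percentile; 0 spots were saturated. Probes with outlier marks (27) were dropped, and detection well above background on every array of some group was required (33888 probes, 22709 named through the transcript accession in a RefSeq table of GRCm38.p6). The brightest kept probe stood for each of 15394 genes, and other probes of the 9 genes are given in the text. A gene below background on all arrays of a group has only a bound there, and folds are then given as "at least", from the higher of its own signal and the lowest signal well above background on each array.

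Differences were fitted with limma 3.58.1 in R 4.3.3, 1 coefficient per group over all 16 arrays, 2-sided, and p-values of each of the 5 comparisons were adjusted by Benjamini-Hochberg across 15394 genes. In tests, ± gives the standard error. In simulated data with known changes the fit recovered 92% to 95% of 2-fold changes and 37% to 74% of 1.25-fold changes over the 5 comparisons. Replicates are independent experiments per the labels. The members, the pathway and marker lists and the alternatives were chosen with earlier results of these data known. From each list the 3 called genes with the largest change in each TGF-β1 comparison and in the difference between responses could be named, and others as values where a result turned on them. Alternatives were normexp (offset 50, on the median spot signal, since a mean spot signal was not in the files used here), quantile normalization, the value table, slide as a block and each slide alone, the replicate number as a block, no filter on dim probes, the mean of a gene's probes, and leaving out each array in turn.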

Additional observations from a re-analysis of the deposited data

Results flagged for a closer look

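On 4 of 36 sets of 4 replicate arrays of a gene, 1 array stood apart, with a gap to its nearest neighbour above 0.829 of the whole range; chance gives about 1 in 20 such sets. Knockout vehicle replicate 1 was high for Cd36 (11.23, the others 10.83 to 10.89, ratio 0.836) and for Lpl (13.30, the others 13.12 to 13.13, ratio 0.96). For Cd36, knockout TGF-β1 replicate 1 was low (7.75, the others 7.82 to 7.84, ratio 0.833), and for Pnpla2 replicate 2 of that group was low (11.46, the others 11.61 to 11.63, ratio 0.909). The response to TGF-β1 differed between knockout and wild type cells by the limma test of the difference for Fabp4 (−1.01), Cd36 (−1.27), Lpl (−1.89), Acsl1 (−0.293) and Plin2 (1.05), on the log2 scale.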

How the results depend on the processing

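Of 45 log2 differences (9 genes in 5 comparisons), 45 kept their direction and their side of the threshold with a replicate block, 45 with slide as a block, 45 with no filter on dim probes, 44 with the mean of a gene's probes, 41 with quantile normalization, 40 with normexp, 38 within slide 2 and 35 within slide 1, and 23 of 25 did so in the value table, which holds 5 of the genes. The block on replicate number changed no call of the 9 genes (Lpl, difference between responses, −1.89); same-numbered arrays correlated by only −0.03 to 0.14, and not every array correlated best with its own number, so the numbers were not taken as pairs. The 9 genes called with TGF-β1 in knockout cells became 5 in the value table because it holds only 5, and the 6 called with vehicle between genotypes became 2 within slide 1, where each group has 2 arrays. Leaving out 1 array gave 9 to 9 calls with TGF-β1 in knockout cells, 7 to 8 in wild type cells, 5 to 7 between genotypes with vehicle, 7 to 8 with TGF-β1 and 5 to 7 for the difference between responses. Of the 6 genes most like Pparg, 0 were shared when ranked by Spearman's rho. Directions turned for Plin2 in knockout cells (−0.23 with quantile normalization, −0.23 in the value table) and otherwise only for differences that were not called. These were Acsl1 with TGF-β1 in wild type cells (−0.016 with quantile normalization, −0.053 within slide 2), Lipe between genotypes with TGF-β1 (0.12 with normexp, 0.13 within slide 1) and with vehicle (−0.0094 within slide 1, −0.024 to 0.17 over arrays left out), Lipe for the difference between responses (0.041 with normexp, 0.14 within slide 1) and Pparg for that difference (0.052 with normexp, 0.0065 with quantile normalization, 0.0074 in the value table, 0.10 within slide 2, −0.063 to 0.026 over arrays left out). The causes were not tested. Lipe was near background, which limits its values.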
